A study of Mus musculus with 12 samples.

Results

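Autophagy is the process in which a cell wraps part of its cytoplasm in a double membrane, the autophagosome, and delivers it to the lysosome, where hydrolytic enzymes break the content down. The transcripts described here come from 42 genes of the autophagy machinery, chosen by symbol for their known roles in initiation, membrane growth, lipid conjugation, cargo capture and fusion with the lysosome, out of 55487 genes in the deposited table of hippocampal RNA. USF-1 is a transcription factor of the basic helix-loop-helix leucine zipper class that binds the E-box CACGTG, which is also the core of the element bound by TFEB, a regulator of lysosomal and autophagy genes. The comparison asked whether autophagy genes moved together with the genes of lysosomal enzymes when USF-1 was missing.

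Hippocampi of 6 WT and 6 USF-1 KO littermates of the strain C57Bl/6JRccHsd, aged 3 to 4 months, were sequenced with 1 library per mouse. The WT group held 4 females and 2 males and the USF-1 KO group 2 females and 4 males, and the mice are called WT 1 to 6 and KO 1 to 6 in the order of deposition. The knockout was carried by every cell of the animal, so that effects arising in the hippocampus and effects of the altered body metabolism of these mice cannot be told apart. RNA was taken from whole tissue, in which fewer cells of a type and less RNA per cell cannot be told apart either.

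Each library held between 21679622 and 32091173 reads on genes. The normalised read count of Usf1 lay between 117 and 163 in KO mice and between 842 and 1583 in WT mice (log2 fold change −3.29, standard error 0.14). Every KO mouse thus lay below every WT mouse. WT 5 at 842 stood apart from the other WT mice, at 1425 or above, and the reason for its lower level was not tested. Markers of excitatory neurons (8 genes, summed normalised count 157128 to 229667) and of inhibitory neurons (6 genes, 15556 to 19514) were present in all 12 libraries. WT 1 and WT 5 stood apart through transcripts of the choroid plexus, the epithelium that secretes cerebrospinal fluid. Their summed counts over 10 markers were 60454 and 169952, against 943 to 2869 in the other 10 mice. Calls and medians of the autophagy and enzyme lists, and the differences of Wipi1, Mitf and Foxo1, are also given without these libraries. The cell type markers and the other single genes are not given without both.

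All 42 genes had a mean of at least 10 normalised counts and were tested. Their levels were compared as normalised counts per kilobase of annotated exon in WT mice. Gabarapl1, an Atg8-family protein that is joined to lipid on the growing autophagosome, had the highest level at 6252 per kb (6048 to 6692 over the 6 mice). It was followed by Sqstm1 (p62), a receptor that links ubiquitin-tagged cargo to Atg8 proteins, at 2947 per kb, and by 3 more Atg8-family genes, Map1lc3a at 2008, Gabarap at 1495 and Gabarapl2 at 1040 per kb. The ranges of these first 5 genes and of the sixth, the receptor Nbr1 at 657 per kb, did not overlap those of their neighbours in the order. From Vps41 (596 per kb) downward, most neighbours overlapped and their order is not resolved. Map1lc3b, the LC3 form most used as an autophagosome marker, came in this middle range at 523 per kb. The 10 genes of the conjugation group, which process Atg8 proteins and join them to lipid, lay from 291 per kb for Atg4c and 271 for Atg3 down to 83.8 for Atg7, 81.4 for Atg4d and 46.4 for Atg4a, the lowest of the 42, all below the 5 Atg8-family genes. The lengths cover all annotated exons of a gene, 7517 bases in Map1lc3b and 2013 in Gabarapl1 for example, and the order depends on them.

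**Figure D1:**
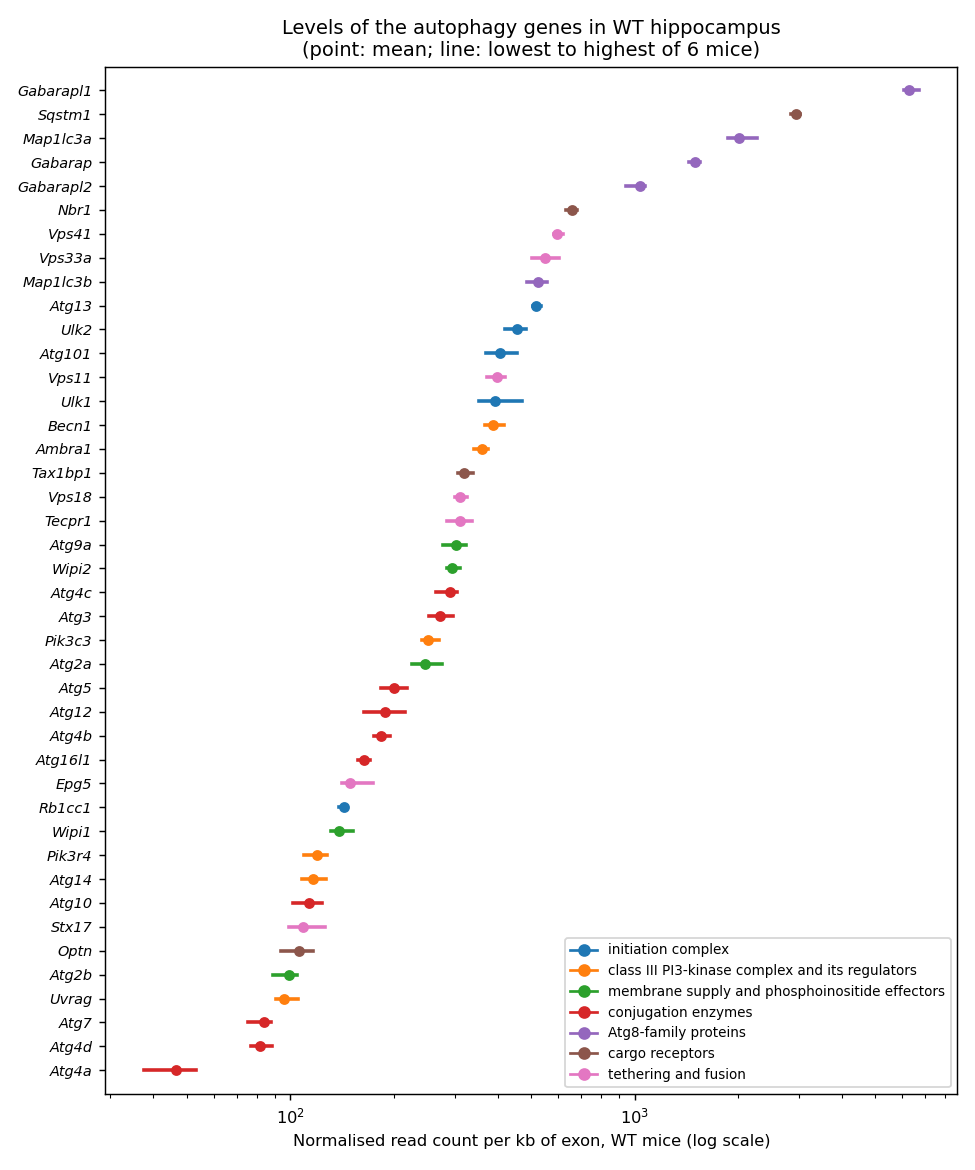
Level of each of the 42 autophagy genes in WT hippocampus, as normalised read count per kilobase of exon on a log scale (x axis), with points at the mean and lines from the lowest to the highest of 6 mice. Gabarapl1 lies at the top at 6252 per kb, apart from Sqstm1 at 2947, and Atg4a at the bottom at 46.4.

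Across the genotypes, 1 of the 42 autophagy genes passed the threshold of 0.05 on the adjusted p (limma on log2(normalised count + 1), Benjamini-Hochberg over 18221 genes). It was Wipi1, which was lower in USF-1 KO mice, beside a background of 0.9% of all genes tested that were called in either direction and 0.741% that were called lower. At an unadjusted p under 0.05, 5 autophagy genes remained, Wipi1 lower and Atg13, Atg7, Sqstm1 and Vps11 higher, against 13.5% of all genes tested. The share of 5 in 42 is near that background. The values of the 6 KO and the 6 WT mice did not overlap in 3 of the 42 genes, Wipi1, Sqstm1 and Vps11, where 1.5% of all genes tested had no overlap. Over the 42 genes the median log2 fold change was 0.03, against 0.00 over all genes tested, and 28 lay above 0 and 14 below.

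**Figure D2:**
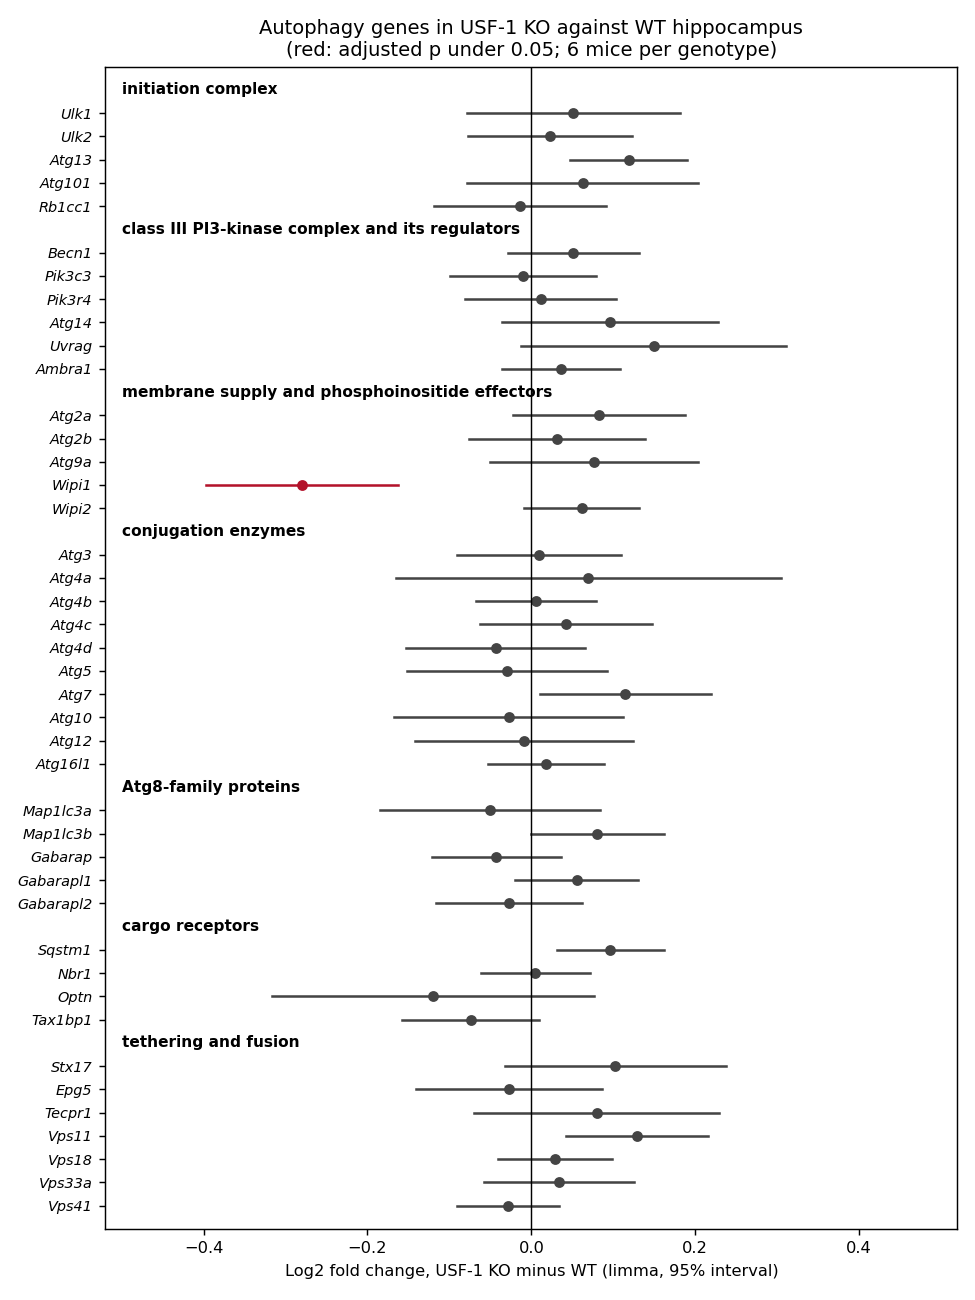
Log2 fold change of each autophagy gene, USF-1 KO minus WT (x axis), with its 95% interval from limma, grouped by role, 6 mice per genotype. Wipi1, in red at −0.28, is the single gene with an adjusted p under 0.05, and the other 41 points lie between −0.12 and 0.15.

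Wipi1 (ENSMUSG00000041895, chr11:109573331-109611967, reverse strand, GRCm38) encodes a WD-repeat protein that binds phosphatidylinositol 3-phosphate on the forming autophagosome. Its normalised read count was 577 in the lowest WT mouse, 601 at the median and 669.6 in the highest, and 458 in the lowest KO mouse, 504 at the median and 547 in the highest. Every KO mouse therefore lay below every WT mouse, with KO 2 lowest and KO 5 closest to the WT group. The KO mean of 501 ± 31.8 (SD, n = 6) was 82.4% of the WT mean of 609 ± 37.1 (SD, n = 6), a log2 fold change of −0.28 with a standard error of 0.05 and a 95% interval from −0.40 to −0.16 (limma, adjusted p = 0.0289). No exon of Wipi1 overlaps an exon of another annotated gene. Its close relative Wipi2, which binds the same lipid and recruits the conjugation machinery, had between 3003 and 3283 normalised counts in WT and between 3146 and 3362 in KO mice, which gave 0.06 on the log2 scale (limma, standard error 0.03, adjusted p = 0.440).

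The call of Wipi1 lay close to the threshold. With 1 mouse left out, its log2 fold change stayed between −0.31 and −0.25, while its adjusted p (limma) ranged from 0.0138 without WT 4 to 0.0854 without WT 1 and passed in 5 of the 12 fits. The call was lost without WT 1, WT 2, WT 3, WT 6, KO 2, KO 3 or KO 4. Without both libraries rich in choroid plexus transcripts the log2 fold change was −0.29, as large as with them, at an adjusted p of 0.0996 (limma), and 0 of the 42 genes was called, against 0.325% of 18169 genes tested. After quantile normalisation it was −0.26 and no longer passed (adjusted p = 0.0592 from limma). With edgeR on the recovered reads Wipi1 was again the single autophagy gene called (log2 fold change −0.28, adjusted p = 0.0297), against 0.829% of genes. DESeq2 on the same reads called 3 of the 42, against 3.74% of the 16451 genes to which it gave an adjusted p, namely Wipi1 (adjusted p = 5.75e-04), Sqstm1 (0.00413) and Atg13 (0.0214). Because the sexes were unequal between the genotypes, sex was also added as a covariate, which left Wipi1 at −0.31 (adjusted p = 0.0194 from limma). Within females it was −0.37 and within males −0.26, neither of which passed the threshold in these smaller groups (adjusted p = 0.697 and 0.320 from limma).

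Cell type markers moved beside this result. All 10 oligodendrocyte markers were lower in KO mice at an unadjusted p under 0.05 in limma, although Ugt8a alone passed the adjusted threshold, and their summed count ranged from 90848 to 197188 (median 162796) in WT and from 78245 to 119218 (median 102574) in KO mice. All 9 microglial markers had a log2 fold change below 0, 6 of them at an unadjusted p under 0.05 and 0 past the adjusted threshold, with sums of 6675 to 9266 in WT and 6289 to 7114 in KO mice. None of these genes was at 0 in any library. Of 8 astrocyte, 7 endothelial, 8 excitatory and 6 inhibitory neuron markers, 0 passed the adjusted threshold and 1, an astrocyte marker, had an unadjusted p under 0.05 (limma). The log2 fold change lay above 0 in 7 of the 8 excitatory neuron markers (median 0.13) and in 5 of the 7 endothelial markers. Of the inhibitory neuron markers 5 lay below 0 and 1 above, and of the astrocyte markers 5 below and 3 above. The part of oligodendrocytes, microglia, neurons or other cell types in the level of Wipi1, or of any other gene below, was not tested.

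The initiation complex switches autophagy on when nutrients are short, and it is built from the kinases Ulk1 and Ulk2 with Atg13, Atg101 and the scaffold Rb1cc1 (FIP200). Of these 5 genes 0 passed the threshold, and their log2 fold changes ran from −0.01 for Rb1cc1 to 0.12 for Atg13. Atg13, the subunit that couples the kinase to its regulators, had 2215, 2244 and 2343 normalised counts in the lowest, median and highest WT mouse and 2323, 2451 and 2587 in the KO mice. WT 4 was the highest WT mouse and the single one to reach the KO range. The KO mean was 108.6% of the WT mean (log2 fold change 0.12, standard error 0.03, adjusted p = 0.119 from limma). Ulk1 lay between 2286 and 3045 in WT and between 2458 and 2790 in KO mice, with the highest value in WT 4, and Ulk2 between 2520.1 and 2884 and between 2518 and 2971, so that both overlapped over most of their range.

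The class III phosphatidylinositol 3-kinase complex makes the lipid that Wipi proteins bind. Its catalytic subunit Pik3c3 (Vps34), the regulatory kinase Pik3r4 (Vps15) and the scaffold Becn1 (Beclin 1) had log2 fold changes of −0.01, 0.01 and 0.05. Exons of Cntd1 on the opposite strand cover 43.9% of the exon bases of Becn1. The largest difference in this group was that of Uvrag, which replaces Atg14 in a form of the complex that acts on endosomes. Its normalised count ranged from 821 to 952 in the WT group (median 852) and from 840.3 to 1178 in the KO group (median 949). KO 1, KO 5 and KO 6 lay within the WT range and KO 4 was the highest. The log2 fold change of 0.15 had a standard error of 0.08 (adjusted p = 0.417 from limma). The 95% interval of Uvrag, from −0.01 to 0.31, was the widest of the group. Without KO 4 the log2 fold change of Uvrag was 0.09. Atg14, which directs the complex to autophagosome formation, was at 0.10 and the regulator Ambra1 at 0.04, so that 0 of the 6 genes passed.

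Besides the Wipi proteins, membrane for the autophagosome comes through the lipid scramblase Atg9a and the lipid transfer proteins Atg2a and Atg2b. Their log2 fold changes were 0.08, 0.08 and 0.03, with standard errors of 0.06, 0.05 and 0.05. Wipi1 was thus the single gene of its role group of 5 with a value below 0.

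Among the 10 conjugation genes, 0 passed the threshold, and the log2 fold changes ran from −0.04 for Atg4d to 0.11 for Atg7. Atg7, the activating enzyme at the head of both conjugation reactions, had between 525 and 612 normalised counts in WT mice (median 593) and between 578 and 676 in KO mice (median 633). WT 5 was the lowest WT mouse, apart from the others at 587 and above, and KO 1 was the lowest KO mouse and lay within the WT range. Its log2 fold change of 0.11 had a standard error of 0.05 (adjusted p = 0.315 from limma). Atg3, the enzyme that transfers Atg8 proteins to lipid, was at 0.01. Atg12, Atg5 and Atg16l1, which form the complex that guides this transfer, were at −0.01, −0.03 and 0.02, and Atg10, which joins Atg12 to Atg5, at −0.03. The proteases Atg4a, Atg4b, Atg4c and Atg4d, which trim Atg8 proteins and release them from lipid, were at 0.07, 0.01, 0.04 and −0.04, Atg4a with the widest interval of the 42 genes (−0.17 to 0.31) and the lowest counts (99.96 to 153.8 over the 12 mice).

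The Atg8-family proteins coat the autophagosome and recruit cargo receptors, and 0 of their 5 genes passed the threshold. Map1lc3b had between 3660.2 and 4188 normalised counts in WT mice (median 3906) and between 3980.3 and 4249.8 in KO mice (median 4196). All 6 KO mice lay above the WT median and the ranges overlapped (log2 fold change 0.08, standard error 0.04, adjusted p = 0.370 from limma). Gabarapl1 ranged from 12175 to 13470.0 in WT (median 12399.7) and from 12665 to 13339 in KO mice (median 13074), which gave 0.06 on the log2 scale (standard error 0.03). The KO range lay inside the WT range, since WT 6 was the highest of the 12 mice. Of the exon bases of Gabarapl1, 28.3% are shared with a transcript on the opposite strand, 1700101I11Rik. The log2 fold changes of the 3 others were slightly below 0, although that of Gabarapl2 was above 0 within females alone (0.0426). Map1lc3a went from 2205 to 2678 in WT (median 2331) and from 1954 to 2524 in KO mice (median 2331), Gabarap from 2655 to 2851 (median 2759.5) and from 2528 to 2845 (median 2677), and Gabarapl2 from 2192 to 2488 (median 2465) and from 2258 to 2569.8 (median 2342). These differences were −0.05, −0.04 and −0.03 on the log2 scale, and the 95% interval of each included 0 (adjusted p = 0.778, 0.665 and 0.825 from limma).

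Of the 4 cargo receptors, 0 passed the threshold. Sqstm1 (chr11:50199366-50210827, reverse strand) had 9588, 9879 and 10159.9 normalised counts in the lowest, median and highest WT mouse and 10185, 10579 and 10801 in the KO mice. The groups did not overlap, although KO 2 lay only just above WT 3. The KO mean was 106.9% of the WT mean, a log2 fold change of 0.10 with a standard error of 0.03 and a 95% interval from 0.03 to 0.16 (adjusted p = 0.163 from limma, 0.197 from edgeR). DESeq2 did call it (adjusted p = 0.00413). After quantile normalisation its log2 fold change was 0.05, with a 95% interval from −0.03 to 0.14 that included 0 (limma). Of the exon bases of Sqstm1, 17.3% also belong to exons of Mrnip on the opposite strand, whose reads could be counted on either gene if the counting did not use strand. Nbr1, a second receptor for ubiquitin-tagged cargo, was at 0.00 (4329 to 4675 in WT and 4395 to 4683 in KO mice). Optn and Tax1bp1, receptors for bacteria, damaged mitochondria and protein aggregates, were at −0.12 and −0.07 with 1 of 6 KO mice above the WT median in each, and with standard errors of 0.09 and 0.04.

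The last group acts when the autophagosome meets the lysosome, and 0 of its 7 genes passed the threshold. Vps11, a core subunit of the HOPS tethering complex (chr9:44347749-44361670, reverse strand), had 1837, 1967 and 2078 normalised counts in the lowest, median and highest WT mouse and 2086, 2156 and 2197 in the KO mice. WT 3, WT 5 and WT 6 reached almost to the lowest KO mouse, KO 1, but not into the KO range. The KO mean was 109.3% of the WT mean (log2 fold change 0.13, standard error 0.04, adjusted p = 0.161 from limma and 0.0752 from DESeq2). The other HOPS subunits Vps18, Vps33a and Vps41 were at 0.03, 0.03 and −0.03, with ranges that overlapped between the genotypes. Stx17, the SNARE protein that drives the fusion, was at 0.10 (standard error 0.06, 588 to 746 normalised counts in WT and 645 to 781 in KO mice), the tether Tecpr1 at 0.08 and the tether Epg5 at −0.03.

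**Figure D3:**
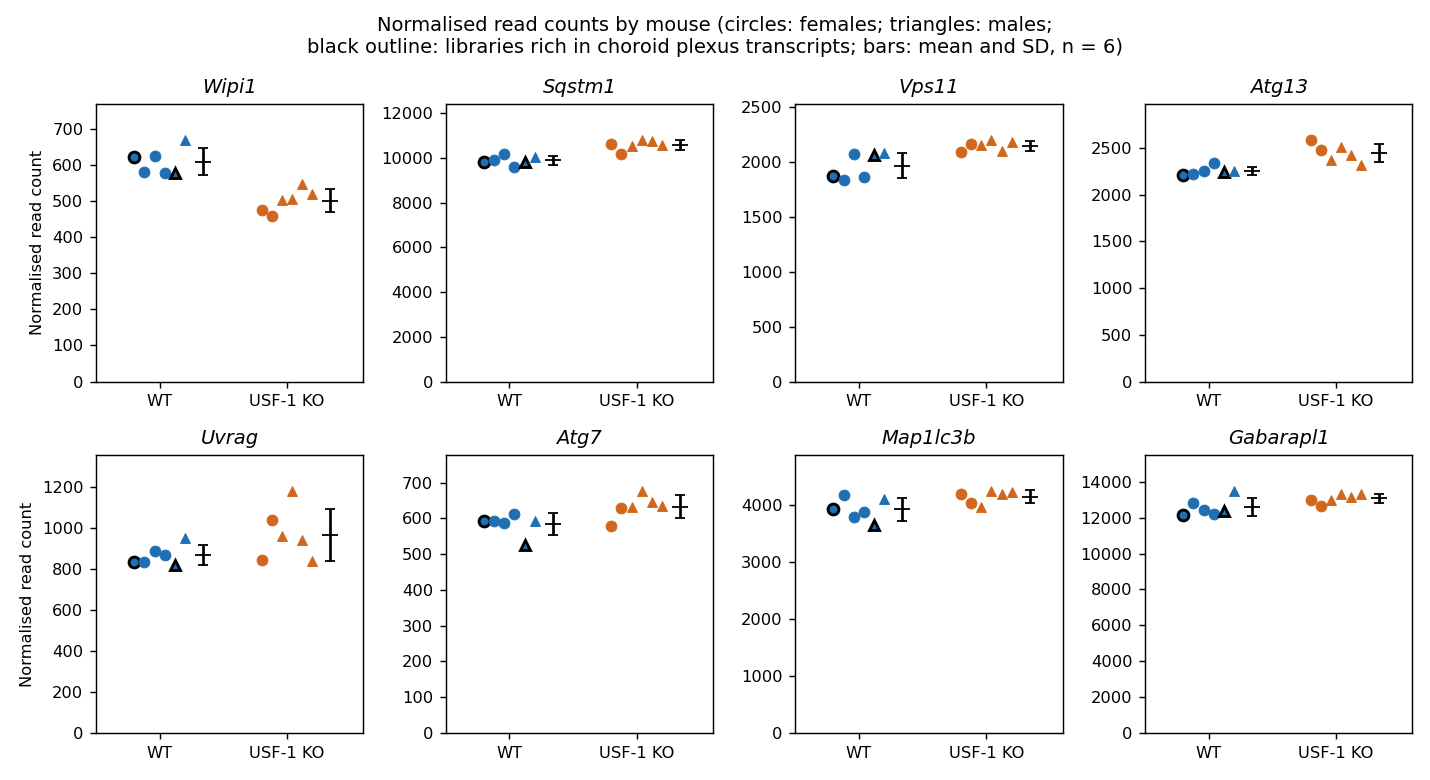
Normalised read count (y axis, from 0) of 8 autophagy genes in each mouse, WT in blue and USF-1 KO in orange, females as circles and males as triangles, bars at mean and SD of 6 mice, black outlines for WT 1 and WT 5. In Wipi1 all KO mice lie at 547 or below and all WT mice at 577 or above, whereas Sqstm1 and Vps11 are separated by narrow gaps and the other 5 genes overlap.

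The precision of these measurements bounds the differences that could have been missed. For 39 of the 42 genes the 95% interval of the fold change (limma) lay wholly within a change of 20% either way, against 50.8% of all genes tested, and the exceptions were Wipi1, Uvrag and Atg4a. The median half-width of the interval was 0.10 on the log2 scale over the 42 genes and 0.18 over all genes tested. The median SD within a genotype was 0.08 on the log2 scale, from 0.03 for Sqstm1 to 0.19 for Atg4a, against 0.11 over 11865 genes in the same range of mean counts. The intervals are those of single genes and are not adjusted for the number of genes tested. Those of Atg13, Atg7, Sqstm1 and Vps11 excluded 0, although limma called none of these genes. The interval of Sqstm1 included 0 after quantile normalisation, and that of Atg7 included 0 with sex as a covariate. Differences within the intervals could have been missed with 6 mice per genotype.

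The sexes were compared through the interaction of sex and genotype in limma, which passed the threshold in 0 of the 42 genes and in 0 (0%) of the 18221 genes tested. At an unadjusted p under 0.05 there were 2 autophagy genes, Atg101 and Atg2a, against 3.45% of all genes tested. The genotype difference of Atg101 was 0.21 on the log2 scale in females and −0.10 in males (male minus female −0.31, standard error 0.12), and that of Atg2a was −0.02 and 0.19 (0.22, standard error 0.09). The comparison rests on 2 KO females and 2 WT males, and neither difference passed the adjustment over all genes.

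Beside the 42 genes, 49 further genes of autophagy and its control were examined, among them mTOR complex subunits, AMP-activated kinase subunits, transcription factors and mitophagy genes. By limma 0 of the 49 passed the threshold, by edgeR and DESeq2 0 as well, while 9, of which 4 higher and 5 lower, had an unadjusted p under 0.05, beside the background of 13.5% given above. The largest log2 fold changes either way were those of Mitf, a relative of TFEB that also activates lysosomal genes, at −0.47 (standard error 0.20, adjusted p = 0.308 from limma), but −0.17 without WT 1 and WT 5 (adjusted p = 0.759), and of Foxo1, a transcription factor that activates autophagy genes when insulin signalling is low, at 0.25 (standard error 0.08, adjusted p = 0.162 from limma), and 0.26 without these libraries. The highest level of Mitf among the WT mice was in WT 5 (442 normalised counts, against a WT median of 229). The median over the 49 genes was 0.01. Without WT 4, 2 of the 49 were called, both lower, against 2.83% of all genes tested in that fit.

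The lysosomal enzymes, the hydrolases that digest what autophagosomes deliver, gave other counts in the same fit. Of 47 enzyme genes 10 passed the threshold and all 10 were lower in KO mice, beside the background of 0.741% given above, and 28 had an unadjusted p under 0.05, 25 of them lower and 3 higher. The median log2 fold change was −0.17, with 38 genes below 0 and 9 above, against 0.03 for the 42 autophagy genes, with 14 below and 28 above. The called enzymes included Dpp7 (−3.54), Sgsh (−0.80), Gaa (−0.63), Manba (−0.50), Tpp1 (−0.46), Idua (−0.42), Hexa (−0.41), Arsa (−0.30) and Ctsa (−0.24), which degrade peptides (Dpp7, Tpp1, Ctsa), glycogen (Gaa), heparan and dermatan sulphate (Sgsh, Idua), oligosaccharides (Manba) and glycolipids (Hexa, Arsa). Gaa, the acid glucosidase, fell from a range of 9707 to 11577 normalised counts in WT mice to 6073 to 7344 in KO mice, with no overlap. In size, the fall of Wipi1 lay between those of Arsa and Ctsa. Without WT 1 and WT 5, 7 enzymes were called, against 0.325% of all genes tested in that fit. There the median log2 fold change was −0.12 for the enzymes and 0.02 for the 42 autophagy genes. An unadjusted p under 0.05 in limma was then found for 23 enzymes, against 1721 of the 18169 genes tested. With 1 mouse left out, between 7 and 13 enzymes were called, while the count over all genes ranged from 64 to 515. DESeq2 called 20 enzymes, of which 19 were lower and 1 higher, against 3.74% of all genes with an adjusted p.

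**Figure D4:**
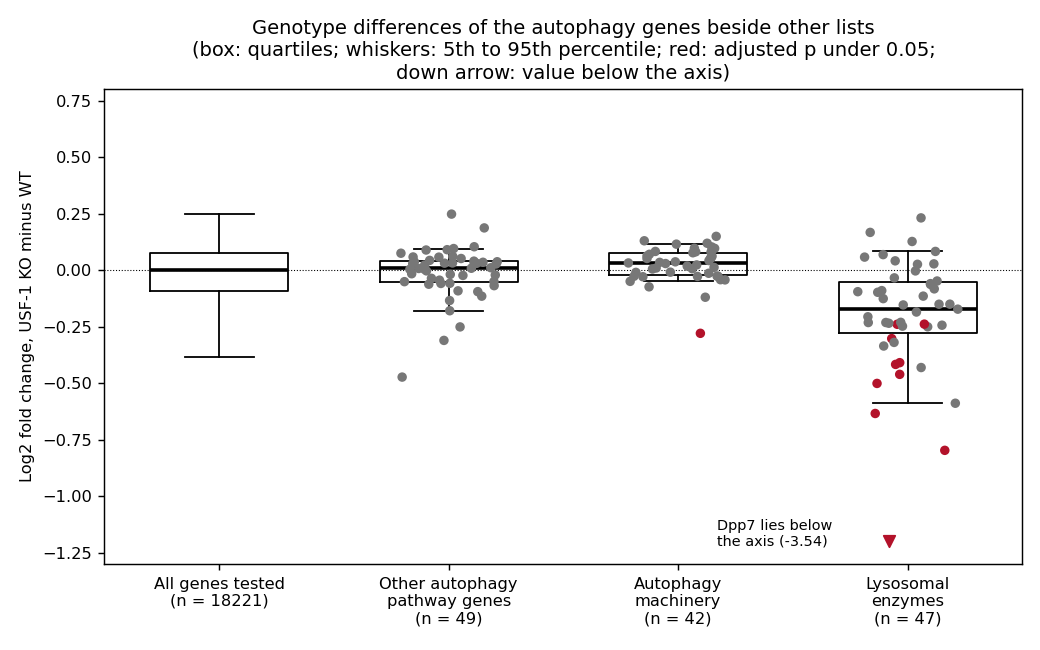
Log2 fold change, USF-1 KO minus WT (y axis), of 49 other autophagy pathway genes, the 42 autophagy machinery genes and 47 lysosomal enzyme genes as points, beside all 18221 genes tested, with boxes at the quartiles and whiskers at the 5th and 95th percentiles, red for an adjusted p under 0.05. The autophagy genes centre on 0.03 with 1 red point, and the enzymes on −0.17 with 10 red points, of which Dpp7 at −3.54 lies below the axis.

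Mouse by mouse, the mean of the 42 autophagy genes, each as a log2 value centred on its own mean over all mice, ranged from −0.03 to 0.00 in WT and from −0.01 to 0.04 in KO mice, and the groups overlapped. The mean of the lysosomal enzymes in the same unit, without Dpp7, ranged from 0.03 to 0.20 in WT and from −0.14 to −0.03 in KO mice, without overlap. WT 5 and WT 1, the libraries rich in choroid plexus transcripts, had the highest enzyme means (0.20 and 0.13) and the lowest autophagy means (−0.03 and −0.02), and KO 2 and KO 4 the lowest enzyme means and the highest autophagy means. Within the genotypes the 2 means ran in opposite directions, with a Pearson r of −0.95 and a Spearman rho of −0.77 over the 6 WT mice and −0.87 and −0.89 over the 6 KO mice. Without the 2 mice farthest from the median, r was −0.65 in WT (WT 1 and WT 5 left out) and −0.89 in KO mice (KO 2 and KO 6 left out). These are descriptions of 6 points each, and both means of a mouse share its library and its size factor. The level of Wipi1 had an r of −0.44 with the enzyme mean in WT and 0.55 in KO mice, and −0.67 and 0.08 without the same mice.

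**Figure D5:**
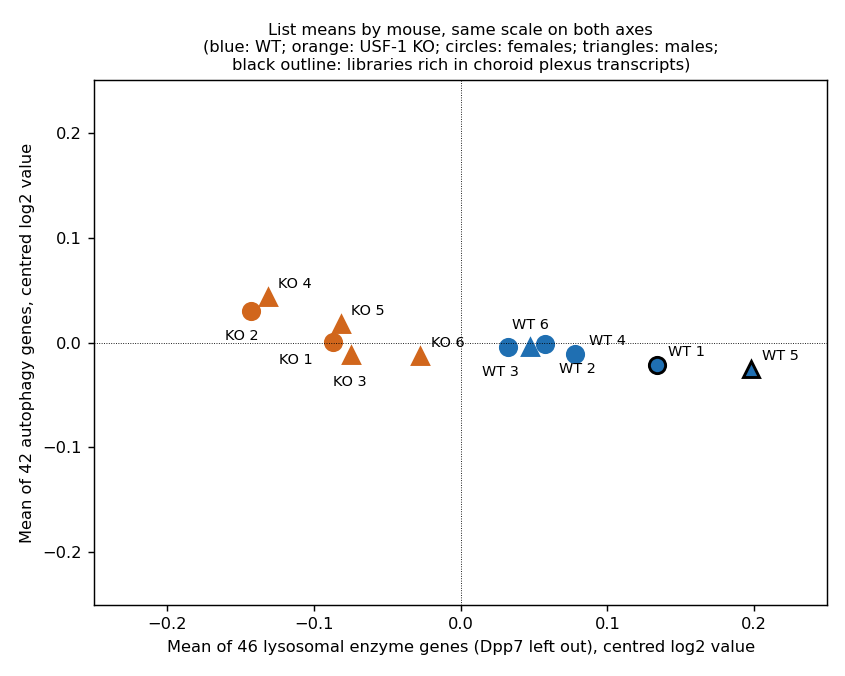
Mean centred log2 value of the 42 autophagy genes (y axis) against that of 46 lysosomal enzyme genes without Dpp7 (x axis) in each mouse, both axes to the same scale, WT in blue and USF-1 KO in orange, black outlines for WT 1 and WT 5. The genotypes separate along the x axis, with WT mice at 0.03 or above and KO mice at −0.03 or below, and overlap along the y axis.

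Since USF-1 binds CACGTG, the letters around the start of the autophagy genes were read from RefSeq on GRCm38.p6, in windows from 250 bases before to 50 bases after each RefSeq start, which need not be the start of the GENCODE gene given above. Windows were found for 34 of the 42 genes, and not for Rb1cc1, Becn1, Pik3c3, Atg12, Atg16l1, Map1lc3a, Epg5 and Vps11. In 27 of the 34 a RefSeq start lay within 100 bases of the GENCODE gene start, and in the other 7, Atg14, Atg4b, Atg7, Atg9a, Gabarap, Wipi1 and Wipi2, it lay farther inside the GENCODE gene, by 27999 bases in Atg7 and 2215 in Atg14. CACGTG, which reads the same on both strands, was found in 5 of the 34 (14.7%, exact binomial 95% interval 4.95% to 31.1%), against 2187 of 27025 genes (8.09%) with a window and 12 of 36 lysosomal enzymes (33.3%, 18.6% to 51.0%). Among the 27 genes with the nearer starts it was found in 3. The 5 genes are shown with 12 bases on either side and the motif in capitals, to set the sites of genes that were not called beside those of 3 enzymes that were.
Atg3, chr16:45158723-45158752, forward strand: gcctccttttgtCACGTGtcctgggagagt
Atg3, chr16:45158746-45158775, forward strand: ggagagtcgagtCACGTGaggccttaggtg
Atg5, chr10:44268313-44268342, forward strand: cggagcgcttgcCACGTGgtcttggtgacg
Atg7, chr6:114670952-114670981, forward strand: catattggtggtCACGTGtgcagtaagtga
Atg14, chr14:47568418-47568447, reverse strand: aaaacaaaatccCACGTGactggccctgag
Vps33a, chr5:123573026-123573055, reverse strand: agcgactcggatCACGTGaacgtcccgtca
Vps33a, chr5:123573010-123573039, reverse strand: tgaacgtcccgtCACGTGacgcaggcggcg
Gaa, chr11:119267811-119267840, forward strand: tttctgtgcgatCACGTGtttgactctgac
Sgsh, chr11:119355522-119355551, reverse strand: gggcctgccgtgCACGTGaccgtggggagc
Dpp7, chr2:25356388-25356417, reverse strand: ccgccagactatCACGTGatgctgccccgc

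Atg3 and Vps33a each held 2 copies, and in Vps33a both stood in the longer form TCACGTGA, as did 1 of the copies in Atg3 and the copy in Dpp7. TCACGTGA, which contains CACGTG and also reads the same on both strands, occurred in 2 of the 34 windows against 1.12% of all genes with a window. The 5 autophagy genes with CACGTG had log2 fold changes between −0.03 and 0.11 with a median of 0.03, and 0 were called (lowest adjusted p = 0.315 from limma, Atg7). Among the 36 enzymes with a window, the 12 with CACGTG had a median of −0.25 with 5 called, and the 24 without it a median of −0.09 with 4 called. The 29 autophagy genes with a window but without CACGTG had a median of 0.04 with 1 called, which was Wipi1. With 1 call in all, the counts for the autophagy genes cannot show whether these letters go with a difference. The window of Wipi1 held no CACGTG, but it lies inside the GENCODE gene, whose own start was not read.

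The window of Wipi1 was rich in G and C (67.2% of the 250 bases before its RefSeq start, which lies 578 bases inside the GENCODE gene, against a median of 52.4% over all windows) and held 8 copies of GGGCGG on either strand, the core of the GC-box. At least 1 copy was found in 32.7% of all windows and as many as 8 in 0.155%. These windows were not matched to that of Wipi1 for G and C. The shares therefore do not measure how unusual it is among windows as rich in these bases. GGGCGG was not counted for the gene lists. The window is printed because Wipi1 was the gene called, from its upstream end, with GGGCGG in capitals. The printed stretch stops short of the RefSeq start and lies wholly inside the GENCODE gene.
Wipi1, chr11:109611433-109611639, reverse strand: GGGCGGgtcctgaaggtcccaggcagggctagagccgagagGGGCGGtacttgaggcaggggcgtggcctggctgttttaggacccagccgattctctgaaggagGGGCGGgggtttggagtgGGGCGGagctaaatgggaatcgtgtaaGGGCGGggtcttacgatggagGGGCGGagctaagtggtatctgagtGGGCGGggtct
These 207 bases hold 7 of the 8 copies. Occurrence of such letters is a description of the sequence, and binding of USF-1 or of any other factor to these stretches was not measured in the data used here.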

How the data were processed

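RNA was extracted from the hippocampus of 12 mice with the Qiagen miRNA mini kit and libraries were made with NEBNext Ultra II. According to the methods, the authors aligned the reads with the Illumina Basespace RNA-Seq app and STAR and used DESeq2, while the submitters' processing notes name STAR 2.5.0a, edgeR 3.22.2 and mm10. The read counter, annotation and use of strand are not given in the sources used here. The deposited signal is a read count per gene, scaled by the authors with 1 size factor for each library. In each library 100% of the values were whole multiples of the smallest step (tolerance 1e-06), which gave back whole reads.

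Log2(normalised count + 1) was fitted with limma 3.58.1 in R 4.3.3 with a mean-variance trend and genotype as the only term, two-sided, on the 12 libraries, for genes with a mean of at least 10, and p-values were adjusted by Benjamini-Hochberg (threshold 0.05). Each p-value measures the spread between mice, with 1 library each, and no pair of libraries was a repeat (lowest chi-square per degree of freedom 4.25). The interaction of sex and genotype was fitted with sex, genotype and their product. Alternatives were pseudocounts of 0.5 and 5, no limit or a limit of 50 on the mean, quantile normalisation or scaling of all libraries to a common total, limma with no trend or with sex as a covariate, the recovered reads in edgeR 4.0.16 (quasi-likelihood, TMM) or in DESeq2 1.42.0, a threshold of 0.1, each mouse left out, and WT 1 and WT 5 left out; the fits within each sex were chosen after seeing the data. The steps were tested on simulated counts.

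The 42 genes, the other lists and the tests were chosen with earlier results of these data known. Values by mouse are given for genes past the threshold, genes whose genotypes did not overlap, the gene with the smallest p in each role group, the Atg8 family and Usf1; of the other lists, genes past the threshold and the largest changes either way were named, except 1 gene whose result is not reported here. Coordinates and exon lengths are those of GENCODE M21 on GRCm38, which matched the deposited coordinates in 42 of 42 genes. Exons of 12 of the 42 genes overlap exons of another annotated gene, 7 of them over more than 5% of their exon bases. Figures were made in matplotlib 3.10.9 under Python 3.11.15.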

Additional observations from a re-analysis of the deposited data

Results flagged for a closer look

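Within the groups of 6 mice, the highest or lowest mouse stood apart from the others, by the size of its gap relative to the whole range of the group, in 11 of 106 groups of normalised counts. By chance about 1 in 20 groups is marked in this way, or 5.3 of 106. The groups come from the same 12 libraries and are not independent, so the 2 counts cannot be compared strictly. Several of the marked values lay in WT 4 or in WT 5. Among initiation genes, Ulk1 was 3045 in WT 4, where the rest of the WT group lay between 2286 and 2544, and Atg13 was 2343 in WT 4, where the rest lay between 2215 and 2253. In the lipid kinase complex, Becn1 was 2697 in KO 1 and 2839 to 2922 in the rest of the KO group, Pik3c3 was 1210.2 in WT 5 against 1081 to 1117, and Atg14 was 628 in KO 2 against 498 to 541. Of the conjugation genes, Atg4b was 1597 in KO 4 against 1496 to 1528, and Atg7 was 525 in WT 5 against 587 to 612. Gabarapl2 was 2192 in WT 4 against 2414 to 2488, and Epg5 was 1742 in WT 4 against 1420.3 to 1465. Outside the autophagy genes, Usf1 was 842 in WT 5 against 1425 to 1583, and the enzyme gene Idua was 392 in KO 5 against 351 to 364.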

How the results depend on the processing

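The number of autophagy genes called moved from 1 to 3 with DESeq2 and to 0 with quantile normalisation, without WT 1 and WT 5, within females and within males, and lay between 0 and 1 with 1 mouse left out. Their median log2 fold change stayed between 0.01 and 0.04 in all 25 alternatives. Over all genes, the count was 98 with sex as a covariate, 109 without the trend, 616 with DESeq2, 59 without WT 1 and WT 5, 4 within females, 6 within males, 343 at a threshold of 0.1, and 64 to 515 with 1 mouse left out. The enzyme count was 20 with DESeq2, 1 within females and 2 within males, and that of the other autophagy pathway genes 0 to 2 with 1 mouse left out. Gabarapl2 reversed within females (0.0426). In the fits within 1 sex, the fewer mice limit the calls by construction; for the other changes of count the cause was not tested. No paired analysis was possible because the labels give the mice no shared numbers. The lowest of the autophagy genes, Atg4a, had at least 99.96 normalised counts in each mouse; whether more reads or more mice would narrow the intervals was not tested.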
